A study of Arabidopsis thaliana with 7 samples.

Results

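The 57 genes described here encode proteins of the cytosolic ribosome of Arabidopsis thaliana, 35 of the large and 22 of the small subunit, out of 27416 genes in the coding count table. They were chosen as named loci for their function, and all 57 passed the filter on low counts in the coding and dsRNA tables. The members belong to 35 protein families. In 17 of these families 2 or more paralogues (39 genes) were present, and 18 families were represented by 1 gene. A gene symbol was available for 26 members, and the other 31 are given by locus identifier. Families and subunits were assigned to loci by hand from general knowledge. A list of 163 other cytosolic ribosomal protein genes was set beside the members, so these 57 do not stand for all such genes.

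The roots came from 14-day seedlings that had spent 7 days on plates that held either 500 µM phosphate, the control, or 0 µM, here called low phosphate, where 0.5 mM NaCl replaced the sodium salt. The plants carried 35S:His6FLAG-RPL18B in Col-0, a single transgenic line in which a viral promoter that is active in most tissues drives an epitope-tagged large-subunit protein. The labels also write the line as 35S:HF-FLAG-RPL8, and name Col-0 alone for the double-stranded RNA. Ribosome footprints, the 26 to 32 nt fragments that ribosomes protect from nuclease, were taken from tagged ribosomes captured in the presence of cycloheximide. Beside them, poly(A) RNA, double-stranded RNA (dsRNA) and small RNA were sequenced. Each of the footprint, poly(A) and dsRNA groups had 2 numbered libraries (n = 2). Nothing in the labels ties libraries of the same number to the same plants, so the p-values measure the spread between these libraries.

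Each cytosolic ribosome holds one copy of most ribosomal proteins, so their synthesis is matched across many genes. In plants nearly every ribosomal protein is encoded by a small gene family whose members can differ in expression. Their mRNAs are short and abundant, and in plants as in animals their translation is known to respond to the TOR kinase, a nutrient sensor. The measure used below is the log2 of footprint CPM over poly(A) CPM (counts per 1000000 counts of the library), both after TMM scaling, so that 0 is the level of a typical gene. This ratio also depends on the assay, the length and the library kit, so a low value is not by itself low translation.

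The coding libraries held 7.16 to 12.8 M footprint counts (M for 1000000) and 18.3 to 26.75 M poly(A) counts, and the dsRNA libraries 2.74 to 8.25 M. The members took 1.18 to 1.49% of the footprint counts, 1.64 to 2.01% of the poly(A) counts and 0.983 to 1.28% of the dsRNA counts. Of 5 tested genes known to be induced by phosphate shortage, 4 were called higher in low phosphate in poly(A) RNA and footprints, and 5 in dsRNA. The control libraries were unlike each other for these genes: the summed level of the list of 6 was 45.5 CPM in control poly(A) library 1 and 231 CPM in library 2, and 76.5 against 289 CPM in the footprints. Summed markers of green tissue (10 genes, none at 0) differed between the numbered libraries too, from library 1 to library 2 going from 393 to 885 CPM in control poly(A) RNA and from 491 to 857 CPM in control footprints, and the other way in low phosphate, from 850 to 561 CPM in poly(A) RNA and from 740 to 492 CPM in footprints. Whether this bears on the members was not tested. Of 6 root markers, including the Casparian strip gene CASP1 and the root hair expansin EXPA7, none was at 0, and their sum was 295 to 874 CPM in the coding libraries.

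RPL18 (AT3G05590) is the gene of the tagged protein. It encodes a large-subunit protein together with its paralogue AT5G27850. RPL18 footprints were at 179 and 215 CPM in control and 185 and 185 CPM in low phosphate roots, and its poly(A) RNA at 314 and 358 against 372 and 442 CPM. The footprint level was below the poly(A) level in every library pair. The fitted log2 ratio was -0.77 ± 0.15 (SE, adjusted p = 0.00482) in control and -1.14 ± 0.16 (adjusted p = 0.00083) in low phosphate, edgeR's quasi-likelihood test with Benjamini-Hochberg adjustment over all genes, as in all coding and dsRNA tests below. AT5G27850 was at 202 and 253 CPM in control footprints, 271 and 207 CPM in low phosphate footprints, 351 and 398 CPM in control poly(A) RNA and 405 and 422 CPM in low phosphate poly(A) RNA. Its ratio was -0.72 ± 0.17 (adjusted p = 0.0114) in control and -0.79 ± 0.17 (adjusted p = 0.00803) in low phosphate. Coding reads of the transgene and of the native gene cannot be told apart in these counts.

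The 3′ UTR reads divided this pair differently from the coding reads. By coding counts RPL18 took 47.2 and 47.3% of the pair's reads in control poly(A) RNA, whereas by 3′ UTR reads per length it took 83.7 and 82.1%. In footprints the shares were 47.0 and 46.0% by coding counts and 47.1 and 55.3% by 3′ UTR reads. Its 3′ UTR poly(A) reads amounted to 33.0 to 36.1% of its coding reads in the 4 libraries, against 7.64 to 9.89% for AT5G27850. The median member was at 10.9 to 11.9%.

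Small RNA reads lay over RPL18 as well. The submitters' table of small RNA loci, for which the labels list a control sample, holds 4 loci inside RPL18 with 10623 reads. Of these reads 31.4% were 21 nt long. Over the other members with a locus the median share was 14.1% and the highest was 25.8%, at AT1G70600 (RPL27a). The locus over the 3′ UTR, chr3:1622615-1622992 on the plus strand (TAIR10), held 6730 reads and was the only member locus with a size call of 21. Of all loci listed 1.63% had that call. The neighbouring locus chr3:1622273-1622534 held 2826 reads, and in both of these loci 99.8% or more of the reads were in the sense direction. The most abundant RNA of each is shown, as these are the 2 loci of RPL18 with the most reads. They are copied 5′ to 3′ from the deposited table, with the 5′ base as a capital.
RPL18 3′ locus: Agaggaccuaagaauucacgu
RPL18 neighbouring locus: Uugccgucuugguuggaacua
The first accounted for 1080 reads (16.0% of its locus) and the second for 504 reads (17.8%). Both are 21 nt long. Reads from the transgene and the native gene cannot be told apart here either.

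AT4G29410, a gene of the RPL28 family, had more small RNA reads than RPL18, 15515 over 2 loci. The larger locus, chr4:14468334-14469067 on the minus strand, held 13890 reads with no size call, and the smaller, chr4:14469180-14469287, held 1625 reads with a call of 22. PGY1 (AT2G27530), an RPL10a gene known for its part in leaf polarity, held the third locus with a size call (23), chr2:11764563-11764608 on the minus strand over its 5′ UTR, with 1247 reads. Their most abundant RNAs are shown for comparison with those of RPL18.
AT4G29410 larger locus: Uuguuacgcuuggcuucugagaua
AT4G29410 smaller locus: Gagcugugaugagaaagcuaac
PGY1 locus: Uucgugaccugagaagacacuca
They accounted for 1833, 377 and 174 reads in that order, and are 24, 22 and 23 nt long. In all, 51 of the 57 members (89.5%) had a small RNA locus, compared with 26.1% of 19110 genes with both UTRs annotated. Of the 111 member loci 108 had no size call (97.3%), compared with 27.7% of all 25025 loci listed. At least 90% sense were 108 of the member loci, and the median over all 57 members was 481 reads. The 6 members with none were RPL16B, RPL16A, AT3G58700, RPS18C, AT5G35530 and AT5G39850. These are the authors' totals over libraries that the table does not separate, and they carry no error.

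In control roots the members' footprints lagged behind their poly(A) RNA more often than they exceeded it. Of the 57 members 20 were called lower in footprints than in poly(A) RNA, against a background of 17.6% of all 19866 genes tested, and 3 were called higher, against 17.1%. In low phosphate 27 were called lower (background 16.9%) and 2 higher (background 15.8%). The members' median fitted ratio was -0.31 in control and -0.47 in low phosphate, where the medians of all genes were 0.00 and -0.02. Among 150 tested other cytosolic ribosomal protein genes, lower and higher calls were near equal in control, 32 and 30, with a median of 0.04. In low phosphate those genes had 45 lower and 10 higher calls, with a median of -0.23. The ratio was below 0 in all 4 library pairs for 37 members, above 0 in all 4 for 7, and of both signs for 13. A library pair is the footprint and poly(A) libraries of the same condition and number. The share of all genes with 1 sign in all 4 pairs was not counted, so these numbers have no background. Of the members called in control, 19 of the 20 lower ones and 2 of the 3 higher ones were called in low phosphate too. The size of this lag depended on single libraries. With 1 library left out at a time, the members' median less that of all genes ran from -0.44 to -0.11 in control. In low phosphate it ran from -0.50 to -0.36. The number of calls also varied with the library left out.

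**Figure D1:**
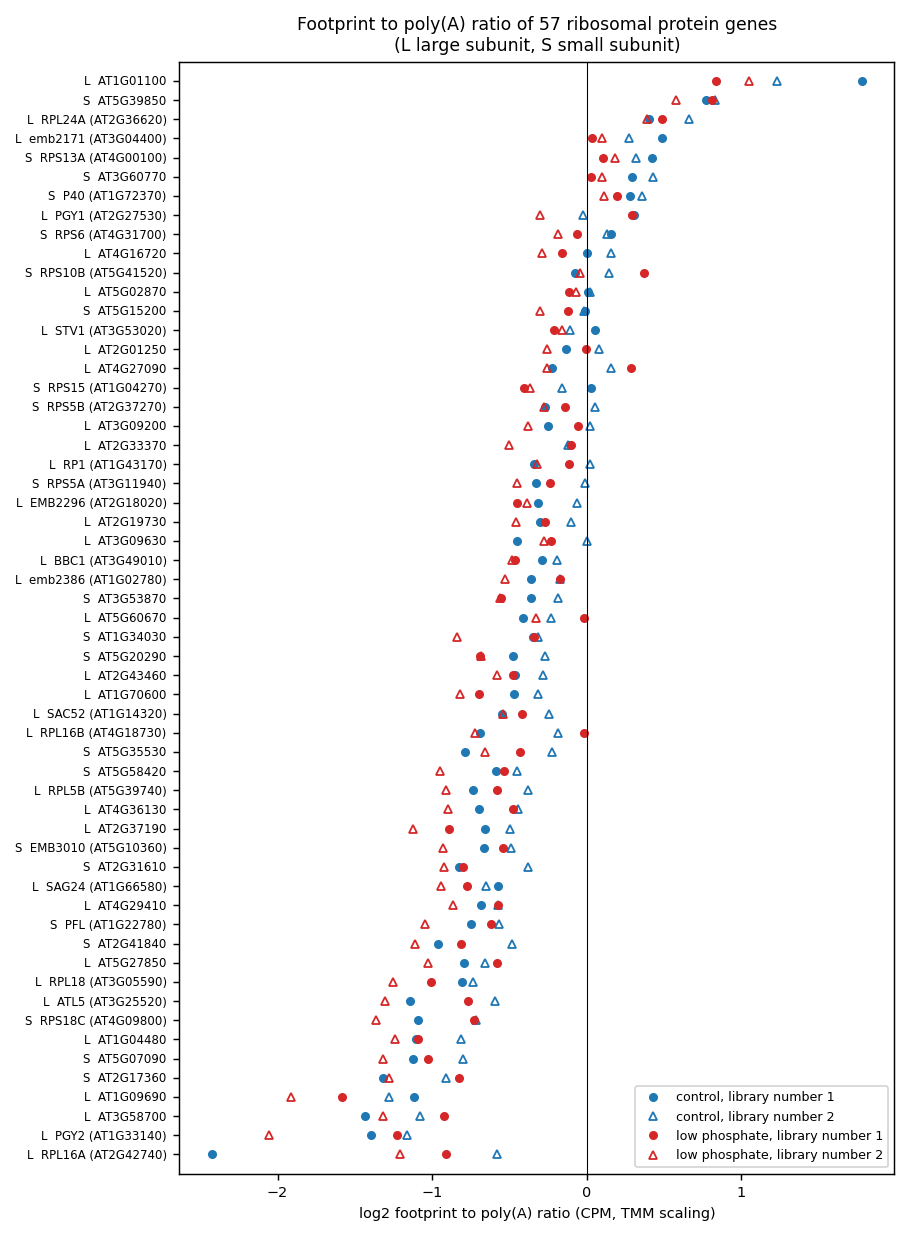
Log2 ratio of footprint to poly(A) CPM (x axis) for each of the 57 members (y axis, L large and S small subunit), with control libraries in blue and low phosphate libraries in red, number 1 as filled circles and number 2 as open triangles. Most members lie left of 0, AT1G01100 lies furthest right, and RPL16A shows the widest gap between the control pairs, -2.43 and -0.58.

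AT1G01100, a P1 acidic protein of the stalk that recruits elongation factors to the large subunit, had the highest ratio. Its footprints were at 259 and 243 CPM in control and 154 and 228 CPM in low phosphate, and its poly(A) RNA at 75.5 and 104 against 86.3 and 110 CPM. Every footprint library was above every poly(A) library. The ratio was 1.49 ± 0.23 (adjusted p = 0.00129) in control and 0.96 ± 0.22 (adjusted p = 0.0102) in low phosphate. The low phosphate call was lost without footprint library 2 (0.65) or poly(A) library 1 (0.80). Its 3′ UTR poly(A) reads amounted to 72.9 to 98.9% of its coding reads. AT3G09200 (P0), the protein that anchors the stalk, had a ratio of -0.10 in control, which did not pass the test.

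AT5G39850 encodes an S9 protein, which lies near the mRNA entry of the small subunit. It was at 48.6 and 62.9 CPM in control footprints and 28.5 and 35.4 CPM in control poly(A) RNA, and at 34.7 and 39.8 against 19.8 and 26.8 CPM in low phosphate. Footprints were the higher of the 2 assays in both conditions. The ratio was 0.80 ± 0.21 (adjusted p = 0.0147) in control and 0.67 ± 0.21 (adjusted p = 0.0323) in low phosphate. The control call was lost without footprint library 2 (0.60) or poly(A) library 1 (0.65), and the low phosphate call without footprint library 1 (0.77), footprint library 2 (0.57) or poly(A) library 1 (0.48). RPL24A (AT2G36620), an RPL24 protein of the large subunit, was at 99.9 and 138 CPM in control footprints and 75.5 and 87.3 CPM in control poly(A) RNA. Its ratio was 0.55 ± 0.17 in control (adjusted p = 0.0329) and 0.44 ± 0.17 in low phosphate (adjusted p = 0.0738). This control call was lost when any of footprint library 2, poly(A) library 1 or poly(A) library 2 was left out (0.29 to 0.65).

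The lowest mean ratios in control belonged to RPL16A (AT2G42740), PGY2 (AT1G33140) and AT3G58700. RPL16A and AT3G58700 are RPL11 genes, whose protein joins RPL5 and the 5S rRNA in the large subunit. RPL16A footprints were at 5.05 and 16.5 CPM in control and 15.9 and 13.0 CPM in low phosphate, while its poly(A) RNA stayed between 24.7 and 29.9 CPM. The low value of control footprint library 1 sets its mean. The fitted ratio was -1.26 ± 0.38 in control (adjusted p = 0.0301) and -1.04 ± 0.36 in low phosphate (adjusted p = 0.0529). AT3G58700 was at 20.95 and 31.3 CPM in control footprints and 56.6 and 66.3 CPM in control poly(A) RNA, and at 31.1 and 24.1 against 59.1 and 60.1 CPM in low phosphate. Its ratios of -1.23 ± 0.21 (adjusted p = 0.00218) and -1.10 ± 0.21 (adjusted p = 0.00364) passed in both conditions.

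PGY2 is an RPL9 gene whose neighbour AT1G33120 is a near-identical copy. Its footprints were at 12.3 and 15.7 CPM in control and 15.0 and 7.99 CPM in low phosphate, and its poly(A) RNA between 32.5 and 35.2 CPM. The ratios were -1.27 ± 0.26 (adjusted p = 0.00519) and -1.55 ± 0.26 (adjusted p = 0.00205). Its 3′ UTR held 275 to 314% as many poly(A) reads as its coding sequence, the highest share of any member. Its coding counts are therefore uncertain, since the labels do not say how reads shared with the copy were counted.

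Other genes completed the members with the smallest p among the lower calls in one or both conditions. AT1G09690, an RPL21 gene, was at 31.5, 36.4, 32.0 and 25.3 CPM in footprints (control 1 and 2, then low phosphate 1 and 2) and at 68.5, 88.4, 95.7 and 95.3 CPM in poly(A) RNA. Its ratio was -1.21 ± 0.18 (adjusted p = 0.00115) in control and -1.73 ± 0.18 (adjusted p = 0.000241) in low phosphate, the smallest p of any member in each condition. AT2G17360 and AT5G07090 are S4 genes of the small subunit. In control AT2G17360 was at 101 and 139 CPM in footprints and 253 and 263 CPM in poly(A) RNA, and in low phosphate at 154 and 123 against 273 and 298 CPM. AT5G07090 was at 111 and 153 against 242 and 266 CPM in control and at 136 and 125 against 278 and 311 CPM in low phosphate. The ratios were -1.10 and -0.95 in control and -1.04 and -1.17 in low phosphate, each called.

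RPS18C (AT4G09800) belongs to the S18 family, as does PFL, whose loss gives pointed first leaves. RPS18C was at 85.4 and 120 against 182 and 198 CPM in control (footprints against poly(A) RNA) and at 110 and 81.9 against 183 and 211 CPM in low phosphate, and its ratios were -0.88 ± 0.20 and -1.03 ± 0.20. SAG24 (AT1G66580), an RPL10 gene found among senescence-associated transcripts, was at 174 and 158 against 259 and 248 CPM in control and at 146 and 144 against 250 and 277 CPM in low phosphate. Its ratios were -0.61 ± 0.13 and -0.86 ± 0.13. The groups did not overlap between assays for either gene, and both were called in both conditions. AT2G37190 (RPL12) was at 183 and 231 against 290 and 326 CPM in control and at 173 and 152 against 320 and 331 CPM in low phosphate, and its ratio was -0.57 ± 0.16 and -1.003 ± 0.16. AT1G70600 (RPL27a) was at 171 and 207 against 238 and 258 CPM in control and at 175 and 171 against 284 and 303 CPM in low phosphate. Its ratio of -0.39 ± 0.14 in control missed the threshold (adjusted p = 0.0576) and that of -0.76 ± 0.14 in low phosphate passed (adjusted p = 0.00358).

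The remaining large-subunit members ranged more narrowly in control. Called lower there were ATL5 (AT3G25520), which carries 5S rRNA, at -0.83, AT4G29410 (RPL28) at -0.62 and AT4G36130 (RPL8) at -0.56, besides AT1G04480 (RPL23) at -0.94. Called lower in low phosphate alone, with their low phosphate ratios, were RPL5B (AT5G39740) at -0.74, AT2G43460 (RPL38) at -0.53, SAC52 (AT1G14320, RPL10) at -0.49 and BBC1 (AT3G49010, RPL13) at -0.47. The control ratios of the large-subunit members called in neither condition ran from -0.40 to 0.37. RPL16B (RPL11) was at -0.40, AT5G60670 (RPL12) at -0.31, emb2386 (RPL19) at -0.26, AT3G09630 (RPL4) at -0.20, AT2G19730 (RPL28) at -0.19 and EMB2296 (RPL8) at -0.18. RP1 (RPL3, beside the peptidyl transferase centre) was at -0.14, AT2G33370 (RPL23) at -0.12, STV1 (RPL24, known for reinitiation after upstream reading frames) at -0.03, AT2G01250 (RPL7) and AT4G27090 (RPL14) at -0.01. AT5G02870 (RPL4) at 0.02, AT4G16720 (RPL15) at 0.09, PGY1 at 0.13 and emb2171 (AT3G04400, RPL23) at 0.37 made up the upper end.

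Among the small-subunit members, AT2G41840 (S2) at -0.70, PFL (AT1G22780) at -0.65, AT2G31610 (S3) at -0.58, EMB3010 (AT5G10360, S6) at -0.57 and AT5G58420 (S4) at -0.51 were called lower in control and again in low phosphate. Called lower in low phosphate alone, with their low phosphate ratios, were AT5G20290 (S8) at -0.69, AT1G34030 (S18) at -0.59 and AT3G53870 (S3) at -0.56. Of those called in neither condition, AT5G35530 (S3, at the mRNA entry) was at -0.47 in control, RPS5A, which is needed in dividing cells of the embryo, at -0.16, RPS5B at -0.08, RPS15 at -0.07 and AT5G15200 (S9) at -0.01. RPS10B at 0.04, RPS6 (AT4G31700), the target of S6 kinase, at 0.14, P40 (Sa) at 0.32, AT3G60770 at 0.36 and RPS13A at 0.37, both S13, lay above 0.

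No member was called changed between low phosphate and control in poly(A) RNA, in footprints or in their ratio. All genes gave 1.18% called in poly(A) RNA, 1.19% in footprints and 0% for the change of the ratio, so the members' 0 is at the background. At an unadjusted p under 0.05 there was 1 member in poly(A) RNA, 1 in footprints and 0 for the ratio, where all 19866 genes gave 1770, 2289 and 397, and DESeq2 called 0 in each. The smallest p values belonged to RPS6 in poly(A) RNA (268 and 311 CPM in control, 344 and 391 CPM in low phosphate, log2 change 0.35 ± 0.14, adjusted p = 0.516) and to AT5G39850 in footprints (-0.58 ± 0.21, adjusted p = 0.317). Next in poly(A) RNA were AT5G39850 at -0.45 ± 0.20 and RPL24A at 0.33 ± 0.17. Next in footprints were AT2G37190 at -0.35 ± 0.16 and AT1G01100 at -0.40 ± 0.22. For the ratio the 3 smallest p values were those of AT1G09690 (-0.52 ± 0.25), AT2G37190 (-0.43 ± 0.22) and AT1G70600 (-0.37 ± 0.20), each with an adjusted p of 1.00.

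The poly(A) values of the members nonetheless lay on one side of 0. The fitted change was positive for 55 of 57 members, with a median of 0.14 against 0.00 for all genes, of which 50.5% were positive. Both low phosphate poly(A) libraries were above both control libraries for 26 members, where 21.6% of all genes were so placed, and below both for 1 member, AT5G39850, where 20.2% of all genes were. In footprints no member had both low phosphate libraries above both controls (19.5% of all genes), and 6 had both below (18.4% of all genes): SAG24, RPS13A, AT5G20290, AT5G39850, AT2G37190 and AT1G01100. The median footprint change was -0.02. The members share libraries, so these counts do not add up as separate evidence.

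The change of the ratio depended on which numbered libraries were set against each other. Between the libraries numbered 1 it had a median of 0.05, with 22 members falling and 35 rising, while 49.0% of all genes fell. Between the libraries numbered 2 it had a median of -0.37 and all 57 members fell, while 52.5% of all genes did. The fitted change had a median of -0.17 and was negative for 50 members. The 7 positive members included all 3 RPL11 genes (RPL16A, RPL16B and AT3G58700) together with RPS10B, AT4G27090, AT2G17360 and AT5G60670. Less the median of all genes, the members' median was -0.34 without control footprint library 1 and -0.01 without control footprint library 2, compared with -0.16 with all libraries.

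**Figure D2:**
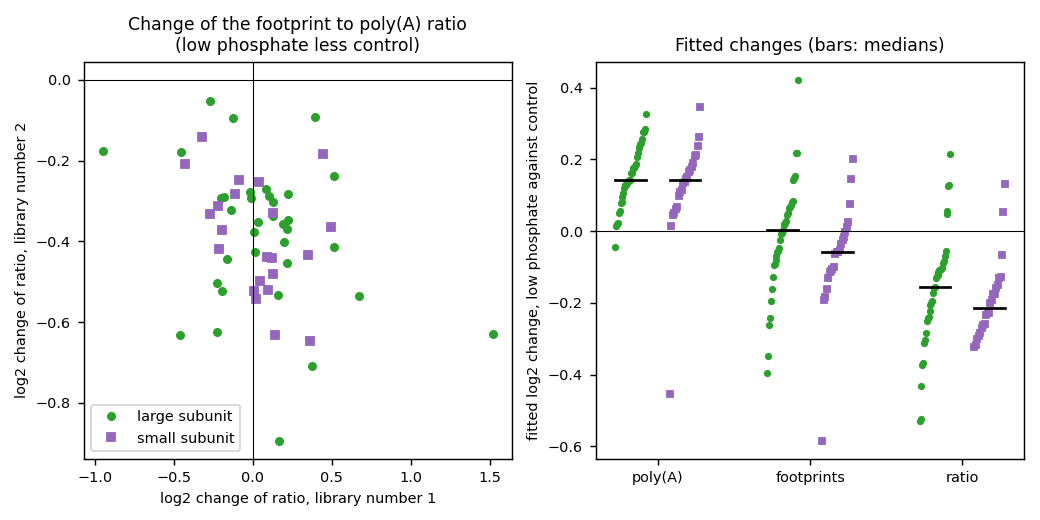
Left, log2 change of the footprint to poly(A) ratio, low phosphate less control, between libraries numbered 1 (x axis) and numbered 2 (y axis), 1 point a member, circles for the large and squares for the small subunit. Right, fitted log2 changes of poly(A) RNA, footprints and their ratio (y axis), members sorted within each column and bars at the medians; all 57 points on the left lie below 0 on the y axis, while on the x axis they lie on both sides.

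The medians of the subunits lay close together. In control the median ratio of the small-subunit members was 0.02 above that of the large, and in low phosphate it was 0.13 below. Over the 4 library pairs the difference of medians was 0.10, -0.02, 0.00 and -0.08. In control 12 of 35 large-subunit and 8 of 22 small-subunit members were called lower, and in low phosphate 16 and 11. The median poly(A) change was 0.14 in either subunit, and the median footprint change was 0.00 in the large and -0.06 in the small subunit. These medians were not tested, since 2 libraries a group cannot pass 0.05 in a permutation test.

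Paralogues of 1 protein differed in the ratio, widely in a few families. Across the 17 families of 2 or more members, the median gap between the highest and lowest control ratio was 0.38, and in 2 families it was 1 or more. For scale, the quartiles of the control ratio over all genes were -0.56 and 0.49. The same paralogue was highest in all 4 library pairs in 15 families, and in 13 the same was highest and the same lowest. The members of a family are similar in sequence, and the labels do not say how reads matching several of them were counted.

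The RPL23 family, whose protein sits at the intersubunit face, had the widest gap, 1.34. The gene emb2171 was at 378 and 424 CPM in control footprints and 270 and 351 CPM in control poly(A) RNA, and at 320 and 398 against 313 and 372 CPM in low phosphate. AT1G04480 was at 66.7 and 95.7 against 144 and 168 CPM in control and at 78.4 and 73.6 against 167 and 174 CPM in low phosphate. Footprints thus exceeded poly(A) RNA for the first and fell short for the second in every pair, and AT1G04480 was called lower in control (-0.94 ± 0.18, adjusted p = 0.00362) and low phosphate (-1.16 ± 0.18, adjusted p = 0.00145). The third gene, AT2G33370, was at 74.4 and 91.2 against 80.4 and 99.3 CPM in control.

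The RPL11 family came next with a gap of 1.06. The gap was 1.73 within control pair 1 and 0.895 within control pair 2. RPL16B was at 105 and 168 CPM in control footprints and 170 and 191 CPM in control poly(A) RNA, the highest ratio of the family in all 4 pairs, while the lowest was RPL16A in control pair 1 and AT3G58700 in the other 3. The S9 family followed with 0.81. Its major gene AT5G15200 was at 497 and 618 CPM in control footprints and 501 and 627 CPM in control poly(A) RNA, about equal, while AT5G39850, described above, was higher in footprints in every pair. At the other end S13 had a gap of 0.01, RPL18 of 0.05 and S5 of 0.07.

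**Figure D3:**
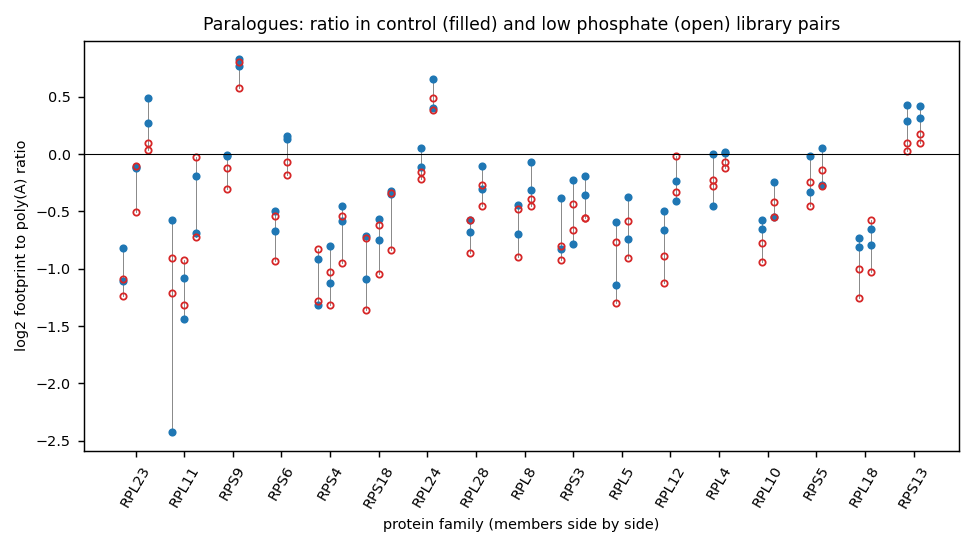
Log2 footprint to poly(A) ratio (y axis) of each member of the 17 families with paralogues (x axis), with control library pairs filled and low phosphate pairs open, and a line joining the 4 values of a gene. RPL23 at the left has the widest gap between paralogues in control, and RPS13 at the right the narrowest.

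The paralogues' shares of their family's coding counts moved little between conditions. The largest move was in the RPL12 family, where AT5G60670 took 22.2 and 24.6% of the footprints in control and 28.9 and 31.8% in low phosphate, a mean rise of 6.99 percentage points, while its poly(A) share changed by -0.67 points. In the S6 family EMB3010 took 59.3 and 57.6% of the family's poly(A) reads under control conditions and 54.0 and 52.7% under low phosphate, and its footprint share went from 45.2 and 46.9% to 45.7 and 39.8%. In the RPL10 family SAC52 (whose mutant form suppresses the dwarf acaulis5) took 58.1 and 67.1% of the control footprints, compared with 66.7 and 67.9% of those from low phosphate. The AT5G60670 footprint share and the EMB3010 poly(A) share did not overlap between conditions, while the footprint shares of EMB3010 and SAC52 did. No test was made of these shares, which were not divided by coding length.

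Coding and 3′ UTR reads did not always name the same leading paralogue. By poly(A) reads in control the leading gene was the same in 9 families and different in 8. The largest shift was in RPL28, where AT4G29410, the gene with the many small RNA reads, took 29.0 and 29.1% of coding poly(A) reads but 80.3 and 83.4% of 3′ UTR poly(A) reads per length. Its footprint shares were 23.9 and 22.8% by coding and 31.0 and 23.1% by 3′ UTR reads. In RPL23 the shift was 39.2 points, with AT2G33370 in the lead by 3′ UTR reads, and in S4 it was 34.2 points, AT5G07090 going from 34.2% to 68.4%. Another S4 gene, AT5G58420, went from 31.1% to 2.01%. What set these shifts was not tested.

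**Figure D4:**
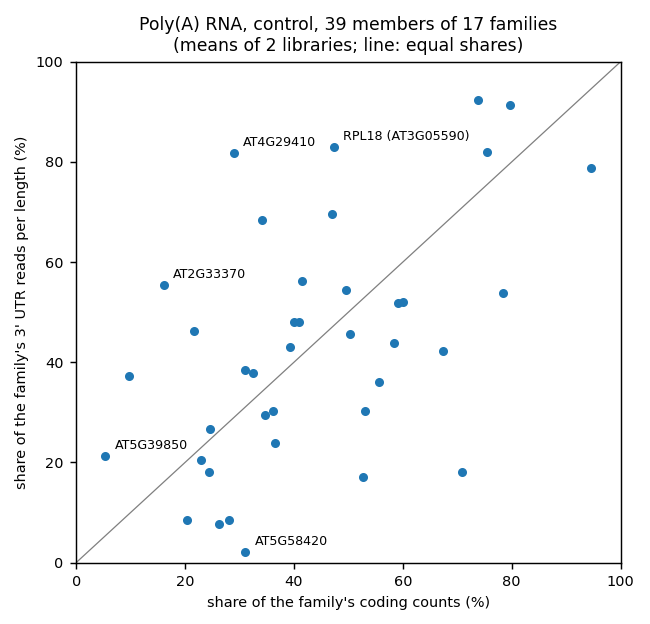
Share of the family's poly(A) reads in control roots for the 39 members with a paralogue (means of 2 libraries), from coding counts (x axis, percent) and from 3′ UTR reads per length (y axis, percent), with a line of equal shares. RPL18 and AT4G29410 lie far above the line, at 82.9 and 81.8% by 3′ UTR reads, and AT5G58420 lies near 0 on the y axis.

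In the UTRs the members carried many footprints, as they did in coding sequence. In control footprint library 1 the median coding log2 CPM was 7.52 for large-subunit and 7.41 for small-subunit members, against 4.03 for all genes. The UTR levels below were not divided by the coding level. The median level of 5′ UTR footprints was 186 reads per kb of UTR, scaled like CPM to the coding total, in control libraries and 144 in low phosphate libraries, against 11.9 and 8.64 over all genes. In contrast the median level of 5′ UTR poly(A) RNA was 0.40 and 0.52 for the members and 0.62 and 0.58 for all genes, and 20 of 57 members had no poly(A) read there in any of 4 libraries. RPL18, for example, had 26, 37, 25 and 39 footprint reads over its 54 nt 5′ UTR and 0 poly(A) reads in all 4 libraries, where a count of 0 allows up to 3. In 3′ UTRs the footprint level was 59.96 and 50.5 for the members and 1.86 and 1.54 for all genes, and the poly(A) level 148 and 161 against 10.5 and 11.4.

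Between conditions no member was called in 5′ UTR footprints (background 0.0166%), 3′ UTR footprints (0.137%) or 3′ UTR poly(A) RNA (0.0778%), by limma on log2(RPKM + 0.5). At an unadjusted p under 0.05, 3 members passed in 5′ UTR footprints, 4 in 5′ UTR poly(A) RNA and 0 in either 3′ UTR test. Over all segments these numbers were 1257 and 1136 of 24033 in the 5′ UTR tests, and 1624 and 478 of 21851 in the 3′ UTR tests. In 5′ UTR poly(A) RNA (0.0374%) a single member was called lower, RP1. Its call rests on a 4 nt segment with 2, 8, 0 and 0 reads (-6.99 ± 0.66, adjusted p = 0.0447), and edgeR on the recovered reads did not call it (adjusted p = 0.474). The members of smallest p in 5′ UTR footprints were BBC1, with 41 and 22 reads in control and 4 and 14 in low phosphate (-2.48 ± 0.77), AT1G01100 with 3 and 1 against 11 and 7 reads (1.76 ± 0.64) and PGY1 with 20 and 15 against 8 and 11 reads (-1.36 ± 0.54). Those in 5′ UTR poly(A) RNA after RP1 were AT3G53870 with 0, 0, 1 and 3 reads and AT3G60770 with 5, 9, 17 and 29. In 3′ UTR footprints they were SAG24 (-0.94 ± 0.51), AT5G35530 (-0.86 ± 0.54) and RPS13A (-0.70 ± 0.51), and in 3′ UTR poly(A) RNA AT1G70600 (0.70 ± 0.57), AT5G60670 (0.75 ± 0.64) and AT4G16720 (0.57 ± 0.49). The RPKM values were tested as deposited, and over all 3′ UTR segments the poly(A) change had a median of 0.31; less that median these 3 were at 0.38, 0.44 and 0.25. None of these passed the adjusted threshold.

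A step in the dsRNA libraries touches the members. Along the genes in locus order, low phosphate library 1 changed its level against library 2 at a single point on chromosome 3, near locus AT3G40000. Its log2 CPM less that of library 2 had a median of 0.20 over 6446 genes before that point and -0.45 over 5634 genes after it. Between the control libraries the medians were 0.05 and 0.05, and in the coding libraries the step was at most 0.01. Of the members, 32 lie before the step, with a median of 0.30, and 25 after it, with a median of -0.40. The dsRNA values of low phosphate library 1 therefore depend on where a gene lies, and the results are given in 3 ways.

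**Figure D5:**
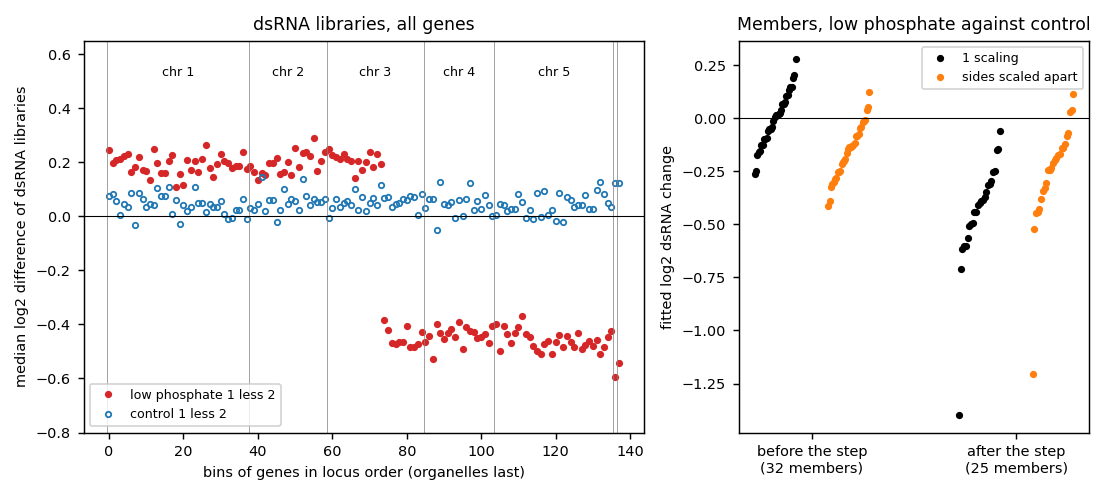
Left, median log2 difference between the 2 dsRNA libraries of a condition (y axis) in bins of genes in locus order (x axis), filled for low phosphate and open for control. Right, fitted log2 dsRNA change of each member on either side of the step, with 1 scaling (black) and with the sides scaled apart (orange); on the left the low phosphate difference drops within chromosome 3 from about 0.20 to -0.45 while the control difference has a median of 0.05 on both sides.

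With 1 scaling for all genes 5 members were called lower in low phosphate (background 5.57%) and none higher (background 10.2%), and all 5 lie after the step. Of all genes 2.56% were called lower before the step and 8.55% after it. At an unadjusted p under 0.05 there were 10 lower and 0 higher, where 4698 of 17570 genes passed in either direction. With the genes on each side scaled apart 13 members were called lower (background 9.07%), 5 before the step (background 8.43%) and 8 after it (background 9.82%). Without low phosphate library 1 there were 6 (background 5.75%). The genes called lower in all 3 were AT5G39850 and AT3G58700, already named for their footprint ratios, AT4G27090 (RPL14) and EMB3010. Both low phosphate libraries were below both controls for 23 members (27.1% of all genes) and above both for 1, AT2G19730 (26.8% of all genes). Of the 23, 21 lie after the step, among its 25 members there, and 2 before it, ATL5 and AT2G37190, among 32. The share of all genes so placed was not counted for each side. The step moves all genes: low phosphate library 1 less the control mean had a median of 0.07 over genes before it and -0.58 after it (log2 CPM). The split of the 23 therefore cannot be told apart from the step.

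AT5G39850 had 24.4 and 13.4 CPM of dsRNA in control and 8.42 and 6.09 CPM in low phosphate (log2 change -1.40 ± 0.32, adjusted p = 0.00025). The control values are apart from the low phosphate values, and control library 1 is the higher of them; without it the change was -0.85 and was not called. AT4G27090 was at 542 and 542 CPM in control and 312 and 395 CPM in low phosphate (-0.62 ± 0.23, adjusted p = 0.0474). EMB3010 was at 252 and 257 against 147 and 189 CPM (-0.60 ± 0.22, adjusted p = 0.0488), and AT3G58700 at 38.6 and 29.7 against 21.04 and 21.3 CPM (-0.71 ± 0.26, adjusted p = 0.0423). RPS10B was at 110 and 107 against 58.7 and 85.3 CPM (-0.60 ± 0.22, adjusted p = 0.0469) and lost its call without low phosphate library 1 (-0.35). With all libraries the members' median dsRNA change was -0.14, against -0.02 for all genes. With 1 dsRNA library left out at a time, the members' median less that of all genes ran from -0.23 to 0.04. The number of members called varied with the library left out.

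In control the gene-level dsRNA to coding poly(A) ratio ran from -1.59 to 2.44 on the log2 scale. It was highest for PGY2 (172 and 194 CPM of dsRNA against 32.5 and 35.1 CPM of poly(A) RNA), whose coding counts are uncertain as said above. AT1G09690 at 1.11 (164 and 172 CPM of dsRNA) and AT1G01100 at 0.94 (170 and 170 CPM) followed. It was lowest for AT4G29410 at -1.59 (39.1 and 44.6 CPM of dsRNA), AT5G20290 at -1.57 (275 and 264 CPM) and BBC1 at -1.55 (117 and 122 CPM). The dsRNA table counts whole genes and the coding table coding sequence, so the numerator and denominator do not cover the same length.

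Related genes were described beside the members by counts. Of 150 tested other cytosolic ribosomal protein genes, none was called in poly(A) RNA, footprints or their ratio, and the medians were 0.18, -0.12 and -0.27. Their ratio in control was called higher for 30 and lower for 32, with a median of 0.04, and in low phosphate for 10 and 45, with a median of -0.23. In dsRNA 1 was higher and 6 were lower. Of 24 ribosome biogenesis genes none was called in the first 3 comparisons, 7 were higher and 2 lower in control footprints against poly(A) RNA, and 1 was higher and 3 lower in dsRNA, the last including FIB1 (fibrillarin, the rRNA methyltransferase) at -0.84 ± 0.23. Of 26 translation factors none was called in the first 3, 9 were higher and 7 lower in the control ratio, and 1 was higher and 2 lower in dsRNA. Of 5 genes of the TOR and S6 kinase pathway none was called in the first 3. In the control ratio 1 was higher (TOR, 0.85 ± 0.14) and 3 were lower, among them S6K2 (-1.56 ± 0.18), a kinase of ribosomal protein S6. In dsRNA 2 were higher, S6K2 at 1.89 ± 0.24 and PK1, the other S6 kinase, at 0.67 ± 0.23. The dsRNA values of all these lists come from the fit with 1 scaling and so depend on the step. S6K2 and PK1 lie before it, where 13.29% of all genes were called higher, against 6.78% after it. FIB1 lies after it, where 8.55% were called lower, against 2.56% before it. The lists were not counted with the sides scaled apart.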

How the data were processed

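The authors aligned reads to TAIR10, and CASAVA 1.8, TopHat 1.3.1 and Bowtie2 2.2.9 are named without roles in the submitters' processing notes; the sources used here name neither the read counter nor its strand setting, so near-identical, overlapping and antisense genes may share reads. The deposited coding and dsRNA tables hold raw counts per gene. The deposited UTR tables hold RPKM per UTR segment, computed by the authors. Whole reads were recovered from the RPKM (100% of values within 0.01 of a whole read). The library sizes behind the poly(A) RPKM (14.2, 17.6, 17.6 and 12.1 M, M for 1000000) do not follow the coding totals (26.75, 18.3, 21.4 and 26.72 M), so UTR levels were rescaled to coding totals. The deposited small RNA table holds read counts per locus and the fraction of reads on the top strand, and its most abundant sequences were copied from it. No per-sample column of a used table was left out.

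Counts were tested with edgeR 4.0.16 (quasi-likelihood, TMM, filterByExpr; R 4.3.3), 8 coding libraries in 4 groups or 4 dsRNA libraries, and UTR values with limma 3.58.1 on log2(RPKM + 0.5) for segments with a mean RPKM of at least 1, where a fold change is on that scale and understates the change of low segments. Benjamini-Hochberg adjustment ran over all features, threshold 0.05, two-sided. DESeq2 1.42.0, other scalings and filters, left-out libraries and the library number as a block were alternatives, and the code was tested on simulated data. Paralogue shares were planned per coding length and are given without it. Limits on a count of 0 (3 reads) cover counting error only. For poly(A) RNA and dsRNA in low phosphate the condition rests on the sample titles, since their treatment text repeats that of the controls.

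The members, gene lists and the rule for named genes were chosen with earlier results of these data known. The rule named the RPL18 genes, the 3 highest and lowest ratios in control, called members (at most 10 a test and direction), the 3 smallest p values a test, the 3 families with the widest ratio gaps and the 3 with the largest share moves, and the 3 highest and lowest dsRNA to poly(A) ratios. Other members were named once with their ratio. RefSeq names came from a TAIR10.1 table used for names only.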

Additional observations from a re-analysis of the deposited data

Results flagged for a closer look

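Small RNA reads lie outside the main measurements, and the lowest total among the 51 members with a small RNA locus was 90 reads. The highest 2 are given here. AT4G29410 (RPL28) had 15515 reads and RPL18 (AT3G05590), the gene of the tagged protein, had 10623, where the next members had 1895 and 1769. Both are the authors' totals, and no low phosphate small RNA library was analysed here.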

How the results depend on the processing

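With 2 libraries a group, single libraries limited most counts. Leaving out each library in turn gave members called lower in footprints against poly(A) RNA between 8 and 27 in control and between 16 and 24 in low phosphate, and members called higher between 1 and 3 and between 0 and 2. The median difference from all genes ran from -0.44 to -0.11 in control, from 0.052 to 0.23 for the poly(A) change, from -0.19 to 0.14 for the footprint change (with 0 to 1 called higher) and from -0.34 to -0.012 for the change of the ratio. In dsRNA it ran from -0.23 to 0.036, with 0 to 3 members higher and 0 to 21 lower. In 5′ UTR footprints 0 to 1 members were called higher, and in 5′ UTR poly(A) RNA 0 were called lower.

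The 5 members lower in dsRNA became 3 with RLE scaling, 3 with no filter on low counts and 3 with DESeq2, and 13 with the sides of the step scaled apart, an alternative chosen after seeing the data. The single 5′ UTR poly(A) call became 0 with a pseudocount of 1, with no filter, with edgeR on recovered reads and with RPKM rebuilt on coding totals (the last chosen after seeing the data). The members' median in 3′ UTR footprints, -0.22 less that of all segments, was -0.005 with edgeR on recovered reads. With 1 value per family the small-subunit median in low phosphate was 0.065 above the large. By 3′ UTR reads, also chosen after seeing the data, the share of AT5G60670 moved by 2.52 points in poly(A) RNA and 10.2 in footprints, and that of SAC52 by 5.15 and 13.9. The sign thus changed for the medians of the footprint and dsRNA changes, without 1 library also for those of 5′ UTR footprints (-0.032 to 0.17) and 3′ UTR poly(A) RNA (0.088 to -0.02), for the subunit difference and for the poly(A) share of AT5G60670 (-0.67 points by coding counts), none of them a call. At an unadjusted p under 0.05, edgeR on recovered reads gave 11 members higher and 2 lower in 5′ UTR poly(A) RNA. Of all segments 1220 of 15042 passed there in either direction. Rebuilt RPKM, tested with limma, gave 7 members lower in 3′ UTR footprints at that threshold, where 2741 of 21137 segments passed in either direction. The causes were not tested.

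The library numbers share no stated origin. Deviations of same-numbered poly(A) and footprint libraries had a correlation of 0.27 for control and 0.45 for low phosphate, and the other pairs of groups -0.05 to 0.04. With the number as a replicate block, 6 members were higher in footprints against poly(A) RNA in control, 1 was lower in dsRNA and 0 in 5′ UTR poly(A) RNA, and no other count of member calls moved by more than 1.5 times. With same-numbered libraries as pairs 0 members were called for the change of the ratio, and 8 were lower at an unadjusted p under 0.05, where 1559 genes passed in either direction. Of all values recomputed under the alternatives 345 stayed, 44 moved and 30 lost their call. Promoter motifs and a comparison leaving out near-identical proteins were not run, as protein and promoter sequences were not used here.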
